A study of Mus musculus with 8 samples.

Results

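The stretch of mouse chromosome 12 described here surrounds Bcl11b, and its members are the 394 array probes between 106 and 110.5 Mb of the mm9 build, out of 235402 non-control probes on the array. Bcl11b was taken to lie at about 109.15 to 109.25 Mb, where 17 of these probes fall. The window was chosen by its measured log2 ratios, because they showed a loss of DNA in mouse 12 and the tumours derived from that mouse. The depth and position of that loss are therefore given as a description, and only differences among the related tumours were open to a test.

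Bcl11b (also called Ctip2) encodes a zinc-finger transcription factor that T-cell progenitors need in order to commit to the T lineage and leave myeloid and natural killer fates behind. The gene is a known haploinsufficient tumour suppressor: loss or mutation of a single allele recurs in T-cell leukaemia and in radiation-induced thymic lymphoma of mice. Downstream of its 3′ end lies a long stretch with few protein-coding genes, which holds distant enhancers that drive Bcl11b in T-cell progenitors.

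DNA from 8 animals was hybridised, each on 1 Agilent array with 2 colours, against DNA of a normal wildtype Balb/c mouse. All sampled animals were Balb/c mice with the genotype SEC31A-JAK2, a fusion that carries the JAK2 tyrosine kinase, studied after bone marrow (BM) transplantation. The primary transplants were T-lymphoblastic lymphomas (T-LBL) from the spleens of M7 and M9 and from a neck lymph node of M12, and a myeloid hyperplasia from the bone marrow of M10. The 4 secondary T-LBL derive from mouse 12 and came from the pancreas of M12.49, M12.52 and M12.53 and from a neck lymph node of M12.50. The ages and sexes of the animals, the cells that carried the fusion and the share of tumour cells in each sample were not given in the sources used here. M12 and its 4 derived tumours are called the mouse 12 lineage below. They descend from a single tumour-bearing animal, so their agreement is not that of independent tumours.

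All values are log2 ratios of sample to reference signal, set to 0 at the autosomal median of each array. A value of −1 is what the loss of 1 of 2 copies in every cell would give on an ideal array. Errors of a single array are standard errors (SE) over its probes, since no DNA was hybridised again. Noise between neighbouring probes was 0.474 for M7 and 0.434 for M12.52, and between 0.224 and 0.283 in the other 6 arrays. The reference dye was dim on M7, where 53.7% of its probes counted as well above background. The other arrays had 98.5% or more. M12.53 ran against its relatives probe by probe, with r between −0.51 and −0.32 over 212081 autosomal probes with the other 4 lineage arrays, and M7 had r between −0.25 and −0.12 with all arrays except M12.53. The labels place the sample in Cy5 on every array, so no sign was turned, and the loss described below had the same sign on M12.53 as on its relatives.

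The 250 bases before the start of Bcl11b are shown because the loss ran past the 5′ end of the gene in every lineage array. The promoter sequence comes from RefSeq (GRCm38.p6, chr12:108003415-108003664, minus strand, printed 5′ to 3′), a build whose coordinates cannot be set against the mm9 positions of the arrays. The capitals mark the core CTTTGA, bound by TCF and LEF factors of the T lineage.

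Bcl11b promoter: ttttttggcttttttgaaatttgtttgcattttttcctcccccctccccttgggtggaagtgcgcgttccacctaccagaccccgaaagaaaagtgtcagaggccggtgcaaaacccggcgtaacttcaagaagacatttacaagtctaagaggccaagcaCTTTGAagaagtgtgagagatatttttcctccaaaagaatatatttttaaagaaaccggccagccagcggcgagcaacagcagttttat

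The core sits 89 bases before the annotated start, and 13.8% of 32851 RefSeq promoter stretches of the same length hold it on either strand. The GATA core AGATAA and the RUNX core TGTGGT, searched on both strands, were not among these letters, and 9.99% and 14% of all promoters hold them. The stretch has 44.8% G and C against a median of 52.4% over all promoters. These matches describe the sequence and say nothing of binding.

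The loss spanned the whole of Bcl11b and cut neither end of it. It covered 103 consecutive probes from 107329523 to 109293982 on chromosome 12, or 1964 kb, and its ends lay far outside the gene on the downstream side and close to it on the upstream side. Bcl11b is read from the minus strand, so its 5′ end faces the high-coordinate end of the loss. The low-coordinate end lay at least 1820 kb from the gene. The high-coordinate end lay 44.0 to 62.4 kb beyond the gene, the gap between the last low probe and the next probe being 18459 bases. These distances take the approximate position of the gene as given, since no annotation of this build was used here, and exons were not placed.

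The gene took up 5.09% of the lost length but 16.5% of its probes, because probes were spaced at a median of 5.40 kb in Bcl11b, 20.7 kb in the 83 probes on its downstream side, and 6.76 and 6.95 kb in the stretches to the left and right of the loss. In the RefSeq gene order, the first protein-coding genes on the low-coordinate side are Gm52008, Gm46320 and Vrk1, a serine/threonine kinase, and between Vrk1 and Bcl11b stand 18 long non-coding RNAs, 2 protein-coding entries, 5 pseudogenes and 1 snoRNA. On the high-coordinate side come Setd3, an actin histidine methyltransferase, then Ccnk, the cyclin K partner of transcriptional kinases, and Ccdc85c, with 0 entries between Bcl11b and Setd3. Gene order comes from another build, so which of these neighbours lay inside the loss was not determined.

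**Figure D1:**
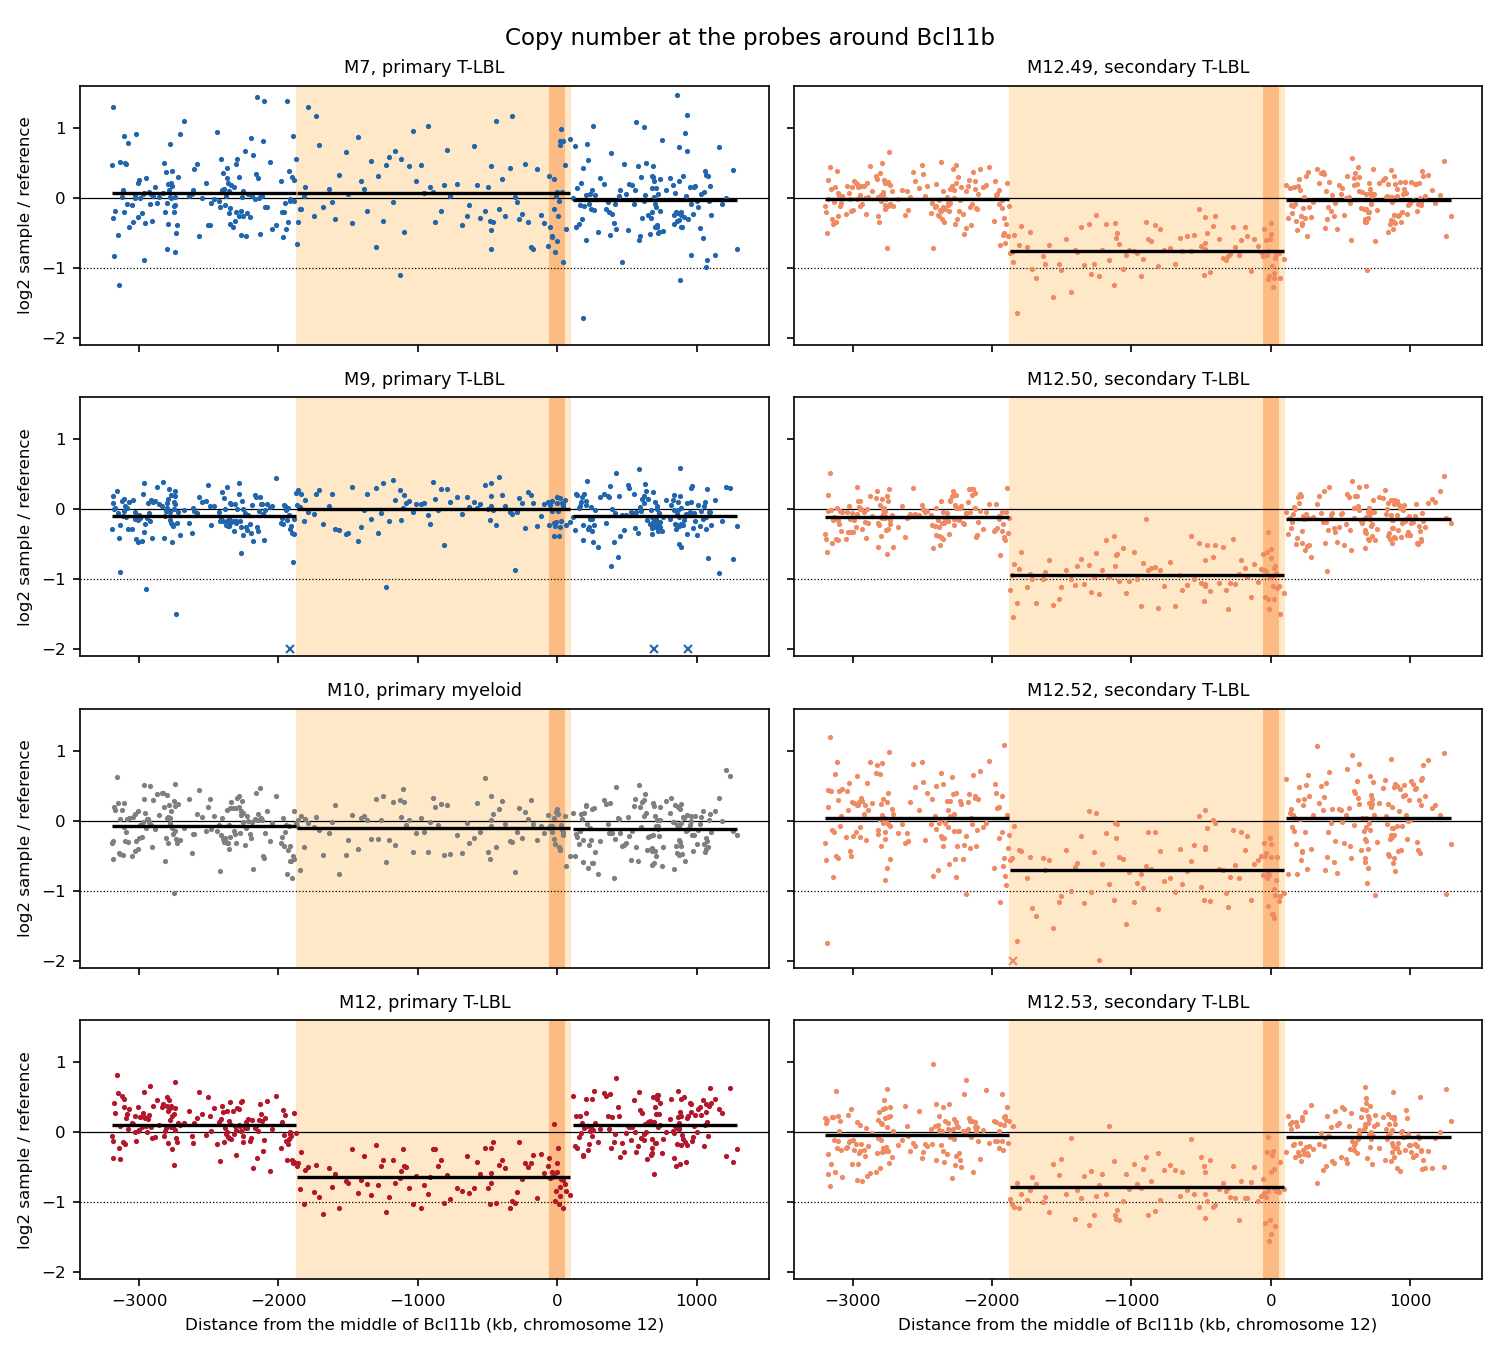
Log2 ratio of sample to reference (vertical axis) at each probe against the distance from the middle of Bcl11b in kb (horizontal axis), 1 panel per array. The pale band is the loss, the darker band Bcl11b, black bars are means of the loss and of each flank, the dotted line marks −1, and crosses are probes below −2 drawn at the axis limit. The bar drops inside the band in M12 and the 4 secondary tumours, to between −0.94 and −0.64, and stays between −0.10 and 0.07 for M7, M9 and M10.

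Both ends were placed by a least-squares change point in each lineage array. The low-coordinate end fell between 107322891 and 107329523, a gap of 6.63 kb, in M12, M12.49, M12.50 and M12.53. In M12.52 the best position was 5 probes lower, between 107289981 and 107296026, but the shared gap was within 2 log-likelihood units of it. Over those 5 probes M12.52 averaged −0.44 ± 0.19 (SE), and arrays that lacked the loss were low there too, M9 at −0.27 ± 0.16 and M10 at −0.35 ± 0.18. After M10 was subtracted probe by probe, an alternative chosen after the data were seen, the end of M12.52 returned to the shared gap. With only probes well above background in both dyes, the low-coordinate end of M12.52 lay further out, between 107254261 and 107258925. Positions from 107239697 to 107280540 were then within 2 log-likelihood units, a range that leaves out the shared gap. The high-coordinate end fell between 109293982 and 109312441 in all 5 lineage arrays. With M10 subtracted it moved in M12.53 alone, to between 109257963 and 109263239, still beyond the gene. Positions from 109242804, the end of the last gene probe, to 109326391 were within 2 log-likelihood units of that best position. With normexp background correction 4 of the 10 ends stayed in the shared gaps and the high-coordinate end of M12.49 fell inside Bcl11b, between 109195143 and 109200524. On that array normexp brought the loss to −0.03. No change point was placed near the loss in M7, M9 or M10, whose chromosome 12 ran through it as a single segment. In simulated data, losses of 20 probes at −0.7 were recovered in 0% of trials on M7, 100% on M9 and 10% on M10. A loss as short as the gene could therefore be missed on M7 and M10.

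The probes on either side of each end show the step directly. The last probe before the low-coordinate end, at 107322832, read −0.01 for M12, −0.11 for M12.49, −0.13 for M12.50, −0.21 for M12.52 and 0.16 for M12.53. The first probe inside, at 107329523, read −0.48, −0.79, −1.16, −0.56 and −0.96 in the same order. The 5 lineage values do not overlap across this gap. The same inner probe was at 0.06 for M9, −0.07 for M10 and −0.66 for M7, the array with dim reference signal.

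At the other end, the last probe inside, at 109293923, read −0.90 for M12, −0.87 for M12.49, −1.20 for M12.50, −1.03 for M12.52 and −0.81 for M12.53. The first probe outside, at 109312441, read 0.51, 0.19, −0.04, 0.60 and −0.28 in the same order. The sets again do not overlap, though the next probe outward, at 109326391, reached −0.76 for M12.52 against −0.50 for M10. Single probes scatter this widely, and the ends rest on runs of probes.

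**Figure D2:**
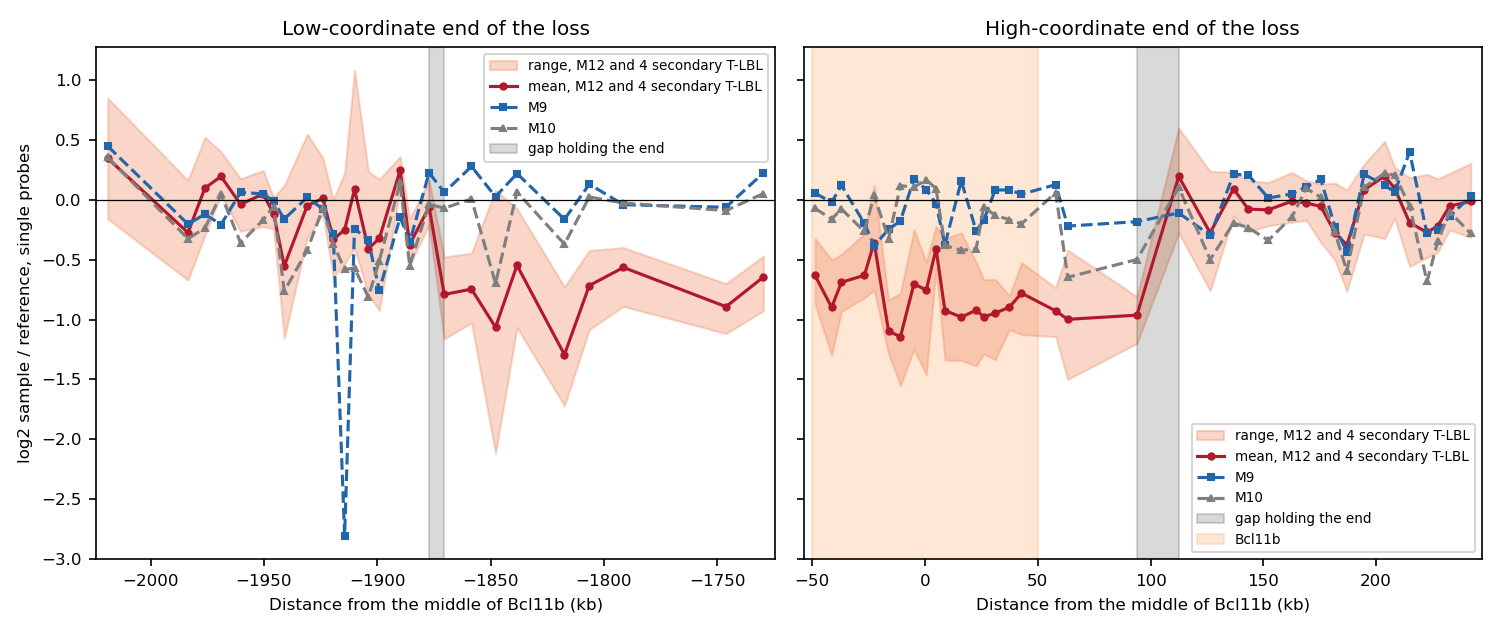
Log2 ratio of sample to reference at single probes within 150 kb of each end of the loss, against the distance from the middle of Bcl11b in kb. The red line and shade are the mean and range of the 5 mouse 12 lineage arrays, dashed lines are M9 and M10, the grey band is the gap that holds the end and the orange band is Bcl11b. At the low-coordinate gap the lineage mean goes from −0.06 to −0.79, and at the high-coordinate gap from −0.96 to 0.20.

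Over the 103 probes the mean was −0.64 ± 0.03 for M12, −0.76 ± 0.03 for M12.49, −0.94 ± 0.03 for M12.50, −0.71 ± 0.04 for M12.52 and −0.79 ± 0.03 for M12.53. It was 0.07 ± 0.05 for M7, −0.00 ± 0.02 for M9 and −0.10 ± 0.03 for M10. The lineage arrays lie apart from the other 3, and the secondary tumours averaged −0.80 ± 0.10 (SD, n = 4), or −0.42 ± 0.31 with normexp. These means leave 64.0% of the reference signal in M12, 59.1% for M12.49, 52.3% for M12.50, 61.2% for M12.52 and 58.0% for M12.53. The 95% interval over probes for M12.50, the deepest, was 50.3 to 54.3%, and those of the other 4 lineage arrays lay above it. These intervals cover the scatter between probes and no shift of a whole array, so they do not rank the tumours.

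In the lineage the loss was the longest autosomal call in M12.49 and M12.50 and the second longest in M12, M12.52 and M12.53. The rank in M12.49 counts 2 neighbouring chromosome 4 calls, of 507 and 1655 kb, apart. In M12.52 that stretch was a single call of 2180 kb. The chromosome 12 loss came from the sample dye. Relative to the mean of M9 and M10, the Cy5 signal of the lost probes stood at −0.58 on the log2 scale in M12 and at −0.79 to −0.70 in the secondary tumours, while the Cy3 reference signal of the 5 arrays deviated by −0.11 to 0.10.

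Much of the spread in depth among the 5 tumours lay outside the loss as well. The 291 flanking probes of the window averaged 0.10 for M12, −0.02 for M12.49, −0.13 for M12.50, 0.04 for M12.52 and −0.05 for M12.53. Measured from its own flanks, the loss was −0.75 ± 0.03 for M12, −0.74 ± 0.03 for M12.49, −0.81 ± 0.03 for M12.50, −0.75 ± 0.05 for M12.52 and −0.73 ± 0.04 for M12.53. The range over the 5 arrays was 0.29 against the autosomal median and 0.08 against the flanks. M12 lay inside the range of the secondary tumours on the second scale, whose mean was −0.76 ± 0.04 (SD, n = 4), and above all 4 on the first.

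The flanks on either side gave like values. The loss minus the low-coordinate flank ran from −0.82 for M12.50 to −0.74 for M12.53, and the loss minus the high-coordinate flank from −0.80 for M12.50 to −0.72 for M12.53. In arrays without the loss the same difference from both flanks was 0.04 ± 0.06 for M7, 0.10 ± 0.03 for M9 and −0.01 ± 0.03 for M10. A step of −0.75 leaves 59.6% of the flank level in M12, and the secondary tumours kept 57.1 to 60.2%. The share of cells with the loss, and any compression of the ratio by the array, cannot be told apart in these values.

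**Figure D3:**
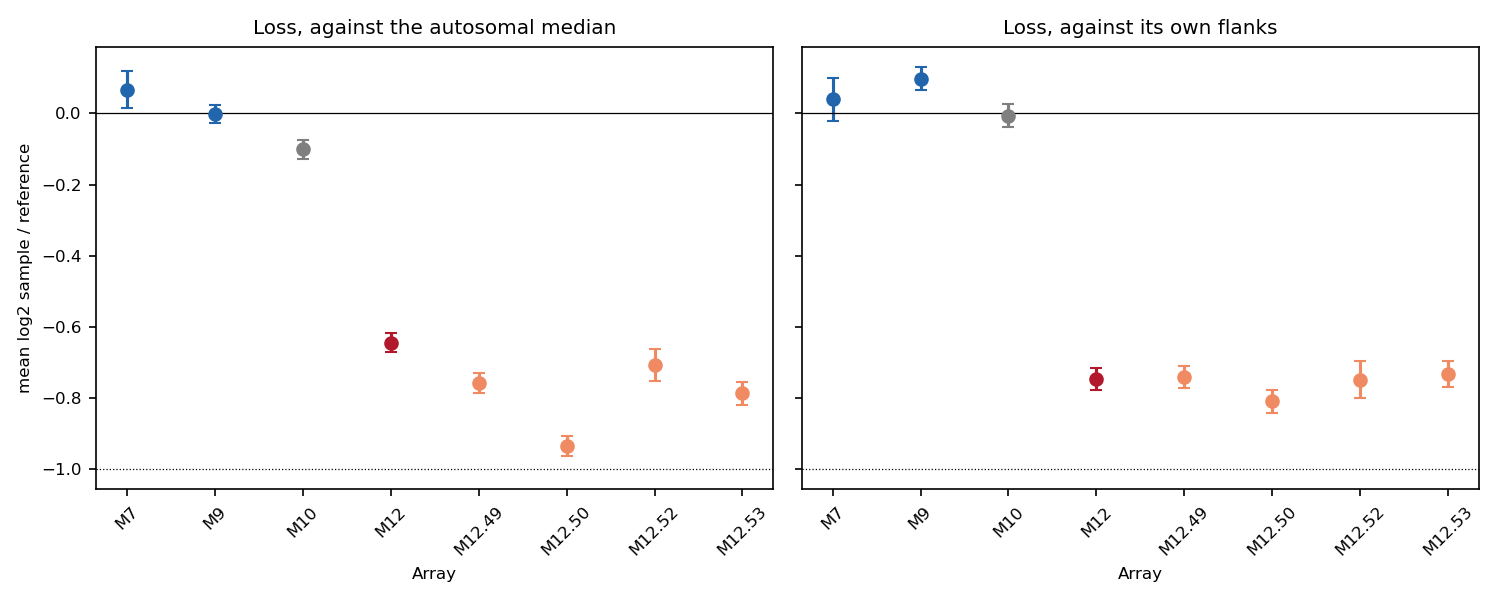
Mean log2 ratio of the 103 lost probes for each array, against the autosomal median (left) and against the 291 flanking probes (right). Points are means, bars are SE over probes and the dotted line marks −1. Mouse 12 lineage arrays spread from −0.94 to −0.64 on the left and from −0.81 to −0.73 on the right.

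Within the loss, Bcl11b was as low as the gene-poor stretch beside it. The 17 gene probes averaged −0.66 ± 0.07 for M12, −0.83 ± 0.07 for M12.49, −0.93 ± 0.07 for M12.50, −0.79 ± 0.09 for M12.52 and −0.82 ± 0.11 for M12.53, a mean of −0.84 ± 0.06 over the secondary tumours (SD, n = 4). They averaged −0.03 ± 0.14 for M7, −0.06 ± 0.05 for M9 and −0.13 ± 0.05 for M10. The gene minus the 83 downstream probes was −0.02 ± 0.08 for M12, −0.09 ± 0.07 for M12.49, −0.01 ± 0.08 for M12.50, −0.11 ± 0.11 for M12.52 and −0.04 ± 0.11 for M12.53. None of these exceeded 2 SE, and arrays without the loss gave −0.11 to −0.04.

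Neither end of the gene was spared. The 8 probes towards the 3′ end averaged −0.58 ± 0.12 for M12, −0.79 ± 0.09 for M12.49, −0.95 ± 0.13 for M12.50, −0.64 ± 0.11 for M12.52 and −0.89 ± 0.18 for M12.53. The 9 probes towards the 5′ end averaged −0.73 ± 0.09, −0.87 ± 0.10, −0.92 ± 0.08, −0.92 ± 0.13 and −0.77 ± 0.14 in the same order. The 5′ minus 3′ difference ran from −0.29 ± 0.17 for M12.52 to 0.12 ± 0.22 for M12.53, with signs that differed between arrays. Among the arrays without the loss it was 0.04 ± 0.09 for M9, −0.09 ± 0.09 for M10 and 0.60 ± 0.25 for M7. On M7 the 3′ probes averaged −0.34 ± 0.13, and 64.7% of the reference signals in the gene were well above background. In M12.52 only 70.6% of the sample signals in the gene were well above background, against 94.1% or more in the other lineage arrays.

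The last 3 lost probes lie upstream of the gene, on the side of its 5′ end. They averaged −0.83 ± 0.05 for M12, −0.94 ± 0.11 for M12.49, −1.27 ± 0.12 for M12.50, −1.08 ± 0.03 for M12.52 and −0.70 ± 0.14 for M12.53. M10, without the loss, was also below 0 over the same probes, at −0.36 ± 0.22.

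Single probes in the gene varied widely around these means. The highest by lineage mean, at 109177424, read 0.12 for M12, −0.75 for M12.49, −0.33 for M12.50, −0.75 for M12.52 and −0.07 for M12.53. The lowest, at 109189091, read −0.84, −1.12, −1.42, −0.78 and −1.55 in the same order. M12 and M12.53 thus held their highest readings in the gene at a probe whose neighbours on both sides read −0.98 to −0.28 in these 2 arrays.

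**Figure D4:**
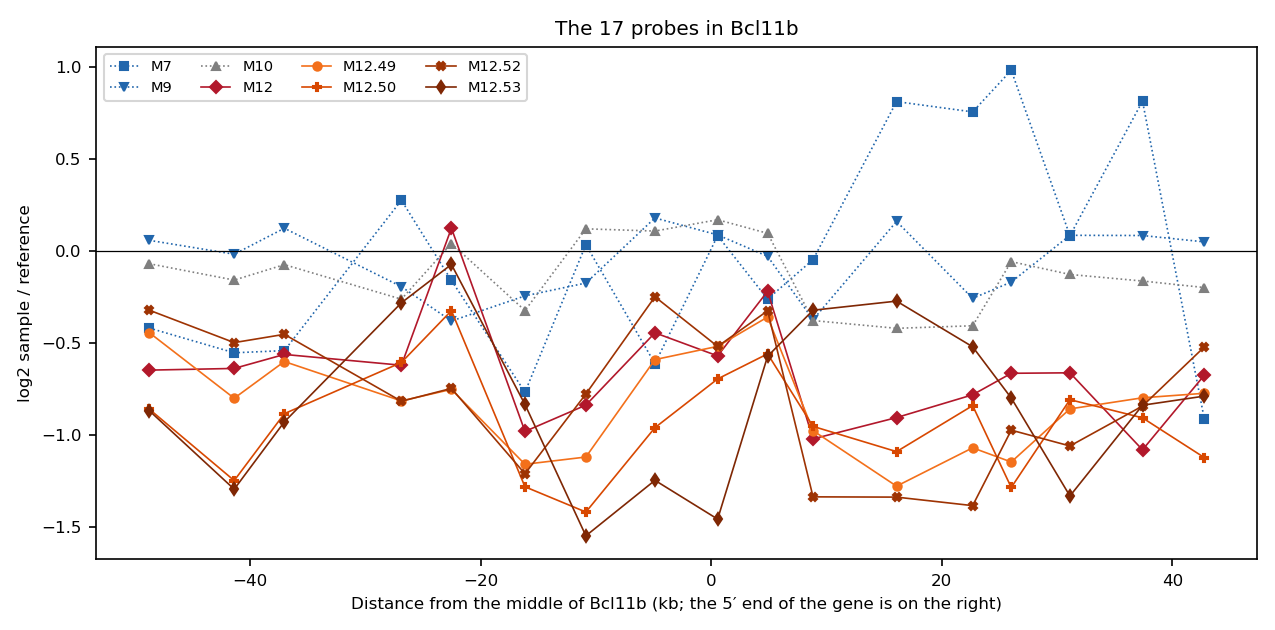
Log2 ratio of sample to reference at the 17 probes in Bcl11b for all 8 arrays, against the distance from the middle of the gene in kb, with the 5′ end on the right. Solid lines are the 5 mouse 12 lineage arrays and dotted lines M7, M9 and M10. Among the lineage arrays M12 alone has a value above 0, at 0.12.

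Counted by array, most lost probes were low in each lineage tumour. At −0.5 or lower stood 67 of 103 probes in M12, where 3.24% of all autosomal probes did, 85 for M12.49 (4.2% of autosomal probes), 96 for M12.50 (2.79%), 70 for M12.52 (14.9%) and 82 for M12.53 (3.02%). The same count was 3 in M9 (4.59%), 6 in M10 (5.53%) and 12 of 99 in M7 (10.5%), with the share of autosomal probes in parentheses. In Bcl11b 5 of 17 probes stood that low on M7, 0 on M9 and 0 on M10.

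The lineage arrays also shared these probes. Of the 103 lost probes, 89 read lower in all 5 lineage arrays than in M9 and M10, where 1.91% of all autosomal probes did. Of the 99 measured on all arrays, 60 also read lower than M7, against 0.828% of autosomal probes. A level of −0.5 or lower in all 5 arrays was met by 41 of 103, against 0.0853%, and a level below 0 in all 5 by 95 of 103, against 5.22%. Inside Bcl11b these counts were 14 of 17, 8 of 17, 8 of 17 and 16 of 17. In the flanks 0 of 144 probes on the low side and 0 of 128 on the high side lay below all 3 other arrays. The window was chosen for this loss, so the counts describe it.

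Probes inside the loss kept a pattern of highs and lows across arrays. Pearson's r over the 99 lost probes measured on all arrays was 0.82 between M12.49 and M12.52 and 0.74 between M12 and M12.52. With M10, which kept the region, it was 0.69 to 0.77 for M12, M12.49, M12.50 and M12.52. It was −0.53 between M12.52 and M12.53. The arrays share a probe design, whose base composition was not examined. Over the 272 flank probes the same pairs gave 0.80, 0.78, 0.69 to 0.86 and −0.57.

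The receptor loci of the same tumours give a scale for the depth. T-cell receptor genes are cut and joined during T-cell development, so that clonal T-cell tumours lose the DNA between joined segments. The 60 probes lost in the T-cell receptor beta locus (chromosome 6, 41018389 to 41489670) averaged −0.63 ± 0.06 for M12, −0.92 ± 0.08 for M12.49, −0.92 ± 0.08 for M12.50, −1.07 ± 0.09 for M12.52 and −0.99 ± 0.06 for M12.53. The myeloid sample M10 stood at 0.06 ± 0.04 there. M7 and M9, T-LBL without the chromosome 12 loss, stood at −0.46 ± 0.09 and −0.30 ± 0.04. The chromosome 12 loss minus this locus was −0.01 ± 0.07 for M12, 0.16 ± 0.09 for M12.49, −0.01 ± 0.09 for M12.50, 0.36 ± 0.10 for M12.52 and 0.20 ± 0.07 for M12.53. The mean of the chromosome 12 loss was thus shallower in M12.52 and M12.53 by more than 2 SE, and within 2 SE in the other 3. The lowest receptor probe read −3.59 for M12, −5.26 for M12.49, −5.20 for M12.50, −4.72 for M12.52 and −3.60 for M12.53, values that lower a mean more than a median. By medians over probes the difference was −0.07 for M12, 0.06 for M12.49, −0.07 for M12.50, 0.24 for M12.52 and 0.09 for M12.53. Averaged over the 5 arrays it was 0.14 ± 0.16 by means, 0.05 ± 0.13 by medians, 0.09 ± 0.14 with probes well above background in both dyes and 0.05 ± 0.09 with normexp (SD, n = 5).

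The alpha/delta locus lost far more. Over its 64 core probes (chromosome 14, 54337752 to 54810474) the mean was −2.52 for M12, −2.96 for M12.49, −3.33 for M12.50, −3.08 for M12.52 and −2.64 for M12.53. Outside the lineage the core averaged −0.67 ± 0.09 for M7, −0.50 ± 0.04 for M9 and −0.07 ± 0.03 for M10. The lineage values are 1.85 to 2.39 below the chromosome 12 loss. They are limited by dim sample signal, with 26.6% or fewer of the sample probes well above background in M12.49 and M12.52 and 60.9 to 78.3% in the other 3, so the true ratio may be lower. Over the chromosome 12 loss 90.3% or more of the sample probes and 99.0% or more of the reference probes were well above background in each lineage array.

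**Figure D5:**
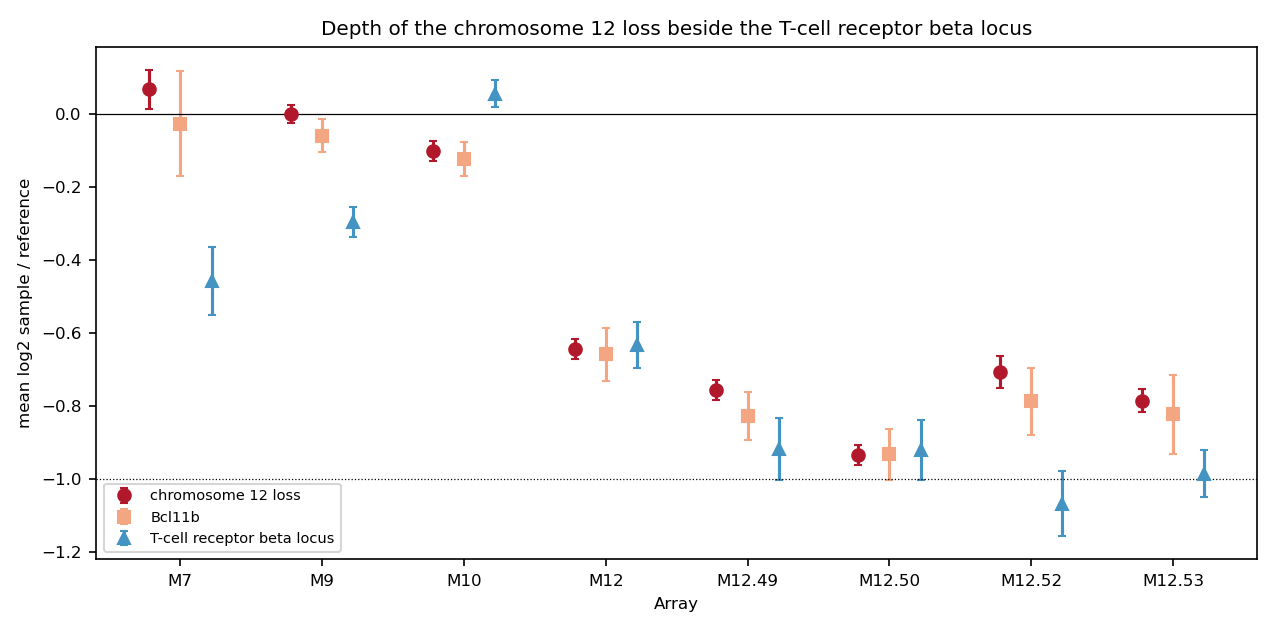
Mean log2 ratio of sample to reference for the 103 probes of the chromosome 12 loss, the 17 probes of Bcl11b and the 60 probes of the T-cell receptor beta locus in each array. Points are means, bars are SE over probes and the dotted line marks −1. The 3 quantities lie between −0.66 and −0.63 in M12, and the receptor locus lies lowest in M12.49, M12.52 and M12.53.

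Set against its own flanks, the receptor locus was less deep in M12 than in each secondary tumour, while the chromosome 12 loss was not. This comparison, with flanks of 1.2 Mb (295 probes) beside the receptor locus, was chosen after the data were seen. The receptor step was −0.62 ± 0.06 for M12, −0.91 ± 0.09 for M12.49, −0.95 ± 0.08 for M12.50, −1.05 ± 0.09 for M12.52 and −0.99 ± 0.07 for M12.53. The chromosome 12 step minus the receptor step was −0.13 ± 0.07 for M12 and 0.17 ± 0.09, 0.14 ± 0.09, 0.31 ± 0.11 and 0.26 ± 0.08 in the secondary tumours in the same order. M12 lay below all 4. It also had a slide and a scan date of its own, and its X and Y ratios differed from those of the secondary tumours. Tumour, batch and reference DNA therefore cannot be told apart here. With 1 array against 4, the two-sided exact permutation test gave p = 0.2, the smallest it can reach. This difference was also lowest in M12 with medians over probes, with normexp signals and with probes well above background in both dyes. With normexp the receptor step itself was −0.35 for M12 and −0.03 for M12.49, so M12 was then not the least deep.

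Whether the secondary tumours differed from M12 in the window was tested with limma on means of 10 neighbouring probes, with p-values adjusted over 22135 autosomal windows. None was called, anywhere on the autosomes, at an adjusted p under 0.05 (0.00% of windows), and 200 windows (0.904%) had an unadjusted p under 0.05. The 11 windows that overlap the loss were all lower in the secondary tumours, with differences of −0.24 to −0.04, and 0 of the 11 had an unadjusted p under 0.05. The flanks were lower too: 28 of their 30 windows were below 0, with differences of −0.26 to 0.05. The median was −0.13 over the loss and −0.14 over the flanks. The window inside Bcl11b, from 109177424 to 109226058, read −0.63 for M12 and −0.90, −0.94, −0.89 and −0.77 in the secondary tumours, a difference of −0.24 ± 0.12 (SE, limma adjusted p = 0.999). In simulated data for this comparison, shifts of −0.5 were recovered in 28% of windows and shifts of −0.8 in 80%. The simulation gave every array independent noise with the spread of the secondary arrays. It left out the wider noise of M7 and differences among the primary tumours, so these shares may be too high for the real arrays. Smaller shifts, such as those measured here, were not simulated. The fit gave M12, a single array, the spread of the other groups. M12 also shared neither slide nor scan date with any other array, and its X and Y ratios differed from those of the secondary tumours. Tumour, batch and reference DNA therefore cannot be told apart in this difference.

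Against all primary T-LBL, the group comparison of the study, the secondary tumours were lower over the whole loss. The mean difference over the 103 probes was −0.60 and over Bcl11b −0.59. Within the scan date shared by M9, M12.49 and M12.52 it was −0.73 over the loss, and on the slide shared by M9 and M12.50 it was −0.93. The window was chosen for the loss in these secondary tumours, so the limma values here are a description and no test of it. All 11 windows of the loss had an unadjusted p under 0.05 (1.12% of autosomal windows did), and 0 autosomal windows passed after adjustment (adjusted p = 0.997 for each of the 11). M12 carries the loss and sits in the primary group. Without M12 the fit called 23 windows, 9 of them in the loss. With the scan date or the slide as a block, M9 is the only primary T-LBL that shares a block with a secondary tumour. M7 and M12 then add nothing to the difference. Its median over the windows of the loss was −0.65 with the scan date and −0.88 with the slide.

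Against normal DNA, limma called 23 windows lower (0.104% of the autosomal windows) and 0 higher in the secondary tumours. At an unadjusted p under 0.05 stood 873 windows (3.94%), all 11 of the loss among them. Of the 11 windows of the loss, 5 were called. They began at 107310073 (estimate −0.63, adjusted p = 0.0313), 107730275 (−0.76, 0.0380), 108827752 (−0.78, 0.0363), 109026930 (−0.76, 0.0135) and 109177424 (−0.87, 0.0143). The last 2 overlap Bcl11b, with 4 and 10 of its probes. The third window that touches the gene, from 109231091 to 109343285, spans the upstream end of the loss and read −0.58 ± 0.09 (limma adjusted p = 0.0764).

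The number of these calls moved with the array set, while their estimates stayed close. Leaving out any of M12.49, M12.50, M12.52 or M12.53 removed every call in the loss, and leaving out M12 from the spread raised them to 11 of 11. All 11 were also called when the sex chromosomes were kept out of the fit, an alternative chosen after the data were seen. The median estimate over the 11 windows stayed between −0.78 and −0.71 in all of these fits. With normexp 0 windows were called, at a median estimate of −0.40 in the loss. With the scan date as a random block (correlation 0.37 between arrays of a scan date) 18 windows were called, 3 of them in the loss, and with the slide as a random block 28, 8 of them in the loss. Since the loss was used to choose the window, these calls describe its depth against the spread between arrays.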

How the data were processed

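Copy number was measured on 8 Agilent arrays with 2 colours, 1 per animal. Per the file headers, the deposited processed intensities of both dyes were made by the authors with Feature Extraction 10.5.1.1, which subtracted background, removed a spatial trend and normalised the dyes linearly; the submitters' processing notes name version 9.1.1. The deposited series table equals the log10 ratios in the array files. Positions are on mm9 in 7 files and mm8 in that of M12, which took the mm9 positions by probe name.

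Here, log2 of processed Cy5 over Cy3 intensity was taken per spot without control and outlier-flagged spots, averaged per probe and shifted so that the autosomal median of every array was 0. Values clipped to 3 SD from the median of 11 neighbours were segmented by penalised least squares (Python 3.11.15), with a call at an absolute mean of 0.25 over at least 5 probes. In simulated data, losses of 100 probes at −0.7 were recovered in 95% of trials on M7 and 100% on each other array. Losses of 20 probes at −0.7 were recovered in 0% on M7 and M12.52, 10% on M10 and 40 to 100% on the others. Losses of 100 probes at −0.35 were recovered in 0% on M7 and M12.52, 45% on M10 and 80 to 100% on the others. Windows of 10 probes were fitted with limma 3.58.1 in R 4.3.3 (lmFit, eBayes, Benjamini-Hochberg over autosomes), X and Y windows included in the fit. Named are the windows overlapping Bcl11b, the windows of the loss called by limma, the 2 probes beside each end, the highest and lowest gene probe, and the nearest protein-coding genes. The window, loci and tests were chosen with earlier results of these data known. Alternatives were normexp signals (offset 50, from median signals, as the files hold no mean signal), probes well above background, flagged spots kept, other centring, M10 subtracted, medians, window sizes, blocks, array weights and leaving out arrays.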

Additional observations from a re-analysis of the deposited data

How the results depend on the processing

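No alternative turned the sign of the loss or of Bcl11b in any lineage array. The mean loss of the secondary tumours was −0.80, moved to −0.42 with normexp signals and to −0.70 with M10 subtracted, and ranged from −0.83 to −0.75 when each secondary tumour was left out. With normexp the step against the flanks was −0.03 in M12.49 and −0.61 to −0.40 in the other secondary tumours, and the receptor beta step of M12.49 shrank alike, to −0.03. Of the 10 ends, 9 lay in the shared gaps, and 4 did with normexp, which placed the high-coordinate end of M12.49 inside Bcl11b, between 109195143 and 109200524; the cause was not tested. The mean over the lineage of the loss minus the alpha/delta core was 2.14, and became 0.34 with normexp and 1.51 with probes well above background in both dyes, which drops the dim sample probes.

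For secondary tumours minus M12, limma called 0 windows, 514 with normexp and 11310 with array weights, whose estimation stopped before it converged; leaving out an array gave 0 to 1. Minus primary T-LBL, it called 0, 30 with the scan and 13 with the slide as a block, and 0 to 23 with an array left out, the 23 without M12. Against the reference it called 23, and 0 with normexp, 36 and 14 with windows of 5 and 20 probes, 18742 with array weights, and 5 to 32 with an array left out (5 without M12.50, 6 without M12.52, 7 without M12.53, 8 without M12.49). Scan and slide blocks were not run for secondary minus M12, since M12 shares neither with another array. No paired analysis was possible, because all secondary tumours share M12 as their parent and M7 and M9 have no derived tumour here.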

Other observations

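The sex chromosomes differed between arrays that share a lineage. Chromosome X had a median log2 ratio of −0.92 in M12 and between 0.05 and 0.11 in the 4 secondary tumours, and chromosome Y had 2.96 in M12 and between −0.25 and 0.08 in those tumours. M10 had 0.84 on X and −1.95 on Y. The sexes of the sampled and of the reference animals were not given in the sources used here. Whether the same reference DNA served every array was not tested. A difference in reference DNA therefore cannot be told apart from other differences between M12 or M10 and the remaining arrays.

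A probe in the low-coordinate flank, at 107285560, read −2.81 in M9 alone, against −0.58 to 0.23 in the other 7 arrays. It was chosen after its value was seen.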
